A study of Mus musculus with 12 samples.

Results

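The pyruvate dehydrogenase complex, with the kinases that switch it off and the phosphatases that switch it on, was described here in total RNA of mouse heart. Its 10 genes were chosen by their role in the complex, as the E1, E2, E3 and E3-binding subunits, the kinases and the phosphatases, out of 54751 features in the count table. They were grouped from a contrast whose result was already known, the lower Pdha1 level of the knockout libraries, so every difference between the genotypes given here is a description. The share of all features that gave the same call stands beside the counts of members. All 10 members were found, each on 1 row, and all 10 passed the filter that 18250 features passed, a mean of 10 or more normalised counts.

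Hearts of C57BL/6N mice aged 52 weeks were compared between 3 control libraries (Rexo2loxP/loxP) and 3 libraries labelled knockout (Rexo2loxP/loxP, +/Ckmm). Both groups thus carry loxP-flanked Rexo2 alleles, and the knockout hearts carry in addition an allele named after muscle creatine kinase (Ckmm). The promoter of that gene often drives Cre in mice to delete floxed genes in heart and skeletal muscle, though the label names no Cre. An effect of that allele and an effect of Rexo2 loss cannot be told apart, since any such loss would fall in the libraries that carry the allele. Libraries are named by group and library number. The labels do not say that each library came from a separate animal. The p-values therefore measure only how these samples spread, and that spread may be technical.

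The complex sits in the mitochondrial matrix and turns pyruvate into acetyl-CoA, the step that commits carbohydrate carbon to the tricarboxylic acid cycle. Its E1 enzyme, built from alpha and beta chains, decarboxylates pyruvate with thiamine diphosphate. E2 passes the acetyl group to coenzyme A on a swinging lipoyl arm, and E3 reoxidises that arm. Kinases shut E1 down by phosphorylating the alpha chain and phosphatases reverse this. In the heart this switch helps set the balance between glucose and fatty acid use, and Pdk4 is the kinase best known to rise in fasting.

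Recovered depth ran from 41979163 to 50764023 reads per library. Features encoded by mitochondrial DNA took 69.4 to 70.0% of the reads in control and 71.5 to 71.9% in knockout libraries, without overlap. Rexo2 itself lay at 330, 368 and 293 normalised counts in control 490, 498 and 502 and at 274, 288 and 314 in knockout 492, 499 and 501. The groups overlapped, and a count over the whole gene does not check the deletion, so knockout refers to the label. Control 490 stood apart on the first principal component, which held 26.4% of the variance, at -30.1 against -5.63 to 16.7 in the other 5 libraries. All 8 heart muscle markers, from Myh6 to Nkx2-5, were detected, with a summed level of 470914 to 520129 normalised counts in control and 467146 to 503954 in knockout libraries. Of the 4 atrial markers, Myl7 and Sln were at 0 in all but 1 library each. The other atrial markers were detected, with a mean over all libraries of 2221 normalised counts for Nppa and 11.6 for Myl4. The atrial list summed to 1945 to 2755 counts in control and 1690 to 2486 in knockout libraries.

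The promoters of 3 members are shown because the results turn on them: Pdha1 and Pdk1, the 2 members whose knockout libraries all lay below all control libraries, and Pdk4, the member that varied most between libraries. Each is the 250 bases before the start that the RefSeq promoter table uses, read 5′ to 3′ on the gene strand on GRCm38.p6, with CG dinucleotides in capitals. For Pdk1 that start lies 9 bases inside the gene span given further on, so the last bases of its window overlap the span.
Pdha1 (chrX:160138431-160138680, minus strand): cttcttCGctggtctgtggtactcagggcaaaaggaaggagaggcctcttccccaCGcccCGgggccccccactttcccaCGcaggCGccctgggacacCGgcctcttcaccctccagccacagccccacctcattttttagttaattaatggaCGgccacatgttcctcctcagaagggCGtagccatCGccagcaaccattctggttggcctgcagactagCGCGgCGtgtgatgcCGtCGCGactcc
Pdk1 (chr2:71872974-71873223, plus strand): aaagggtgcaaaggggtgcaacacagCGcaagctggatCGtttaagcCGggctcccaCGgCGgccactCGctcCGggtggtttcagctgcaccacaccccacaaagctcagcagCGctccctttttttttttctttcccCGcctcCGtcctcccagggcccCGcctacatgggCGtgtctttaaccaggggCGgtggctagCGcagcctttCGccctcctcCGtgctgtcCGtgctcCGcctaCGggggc
Pdk4 (chr6:5496279-5496528, minus strand): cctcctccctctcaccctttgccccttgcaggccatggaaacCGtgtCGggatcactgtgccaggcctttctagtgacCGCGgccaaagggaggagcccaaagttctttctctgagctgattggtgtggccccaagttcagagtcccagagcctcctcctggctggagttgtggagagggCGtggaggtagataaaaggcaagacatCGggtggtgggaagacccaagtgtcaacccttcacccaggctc
The Pdha1 window held 15 CG dinucleotides and the Pdk1 window 19, while that of Pdk4 held 6, the median of the 27025 promoters compared. Their GC content was 61.6%, 64.0% and 58.8%, where the median promoter had 52%. Of 9 members with an entry, all but Pdp1, Pdhx had the most CG dinucleotides, 24, and Pdk4 the fewest. The windows were searched on both strands for 8 motifs: the TATA box TATAAA, the Sp1 box GGGCGG, the hypoxia element core ACGTG, the FOXO element TGTTTAC, the oestrogen-related receptor element TCAAGGTCA, and the longer palindrome of nuclear respiratory factor, the PPAR direct repeat and the glucocorticoid receptor palindrome. The Pdk1 window held 1 Sp1 box, from 62 to 57 bases before the start of that table, a motif found in 33% of all promoters. Neither the Pdha1 nor the Pdk4 window held a match to any of the 8. Only exact matches within these 250 bases were searched, so a missing match does not show that a gene lacks such sites. Of all promoters 13% held the TATA box, 16.5% the hypoxia core, 3.06% the FOXO element and 0.366% the oestrogen-related receptor element. The palindrome of nuclear respiratory factor was in 0.777%, the PPAR repeat in 0.037% and the glucocorticoid receptor palindrome in 0.0037%, and no 2 different motifs overlapped in a member's window. The Pdhb window held 2 Sp1 boxes, as did that of Pdhx. That Pdhb window, chr14:8172993-8173242 on the minus strand, lies wholly inside the Pdhb gene span given further on. Its motif matches are therefore not upstream of that span. None of the 8 motifs other than the Sp1 box and the hypoxia core was found in any member.

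Pdha1 was the member that stood out. It encodes the E1 alpha chain, which carries the serines that the kinases phosphorylate, and was lower in every knockout library. Pdha1 (ENSMUSG00000031299.10, chromosome X, 160122219 to 160138430) was measured at 13266, 13218 and 13189 normalised counts across the controls (490, 498 and 502) and 10841, 10375 and 10397 across the knockouts (492, 499 and 501). In whole heart, fewer cells of a type and less RNA per cell cannot be told apart. The 3 control values were nearly equal and the groups were well apart. Means were 13224 ± 39.2 and 10538 ± 263 (SD, n = 3 per group), a change of -20.3%. The log2 fold change, on the log2(value + 1) scale, was -0.33 (SE 0.042) and had a 95% interval from -0.42 to -0.24, and limma gave an adjusted p of 0.0126. The spread of the control libraries, a CV of 0.296%, was below the 0.848% that counting error alone gives at this depth, whereas the knockout CV of 2.50% was above its 0.998%. The call was lost with edgeR (adjusted p = 0.0598), with limma without a trended prior (0.921) and without control 498 (0.241), control 502 (0.0694), knockout 499 (0.174) or knockout 501 (0.0536), while the log2 fold change stayed between -0.35 and -0.32 in the 6 fits that left out 1 library. RefSeq places Map3k15 across part of the Pdha1 locus, and that gene held 20.8 to 32.2 counts.

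None of the other 4 subunits was called. Pdhb (ENSMUSG00000021748.9, chromosome 14, 8165991 to 8173303), the E1 beta chain that pairs with Pdha1 in the same enzyme, was measured at 3457, 3430 and 3580 normalised counts across the controls and 3577, 3497 and 3436 across the knockouts. The libraries were interleaved, and the log2 fold change was 0.0060 with a 95% interval from -0.093 to 0.11. Dlat (ENSMUSG00000000168.9, chromosome 9, 50634633 to 50659780), the E2 acetyltransferase that forms the core, held 4431, 4186 and 4317 counts against 4555, 4103 and 4322. Its groups overlapped too, with a log2 fold change of 0.0042 and an interval from -0.10 to 0.11. Both intervals lie above the upper bound of the Pdha1 interval, -0.24, though the difference between members was not tested.

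Dld (ENSMUSG00000020664.10, chromosome 12, 31331562 to 31351471), the E3 enzyme that the complex shares with other 2-oxoacid dehydrogenases, was measured at 2455, 2557 and 2549 normalised counts across the controls and 2836, 2730 and 2562 across the knockouts. The groups did not overlap, but knockout 501 was almost level with control 498. The log2 fold change was 0.10 with an interval from -0.0097 to 0.22, and limma's adjusted p was 1.00. Scaled to equal totals it was 0.033. Pdhx (ENSMUSG00000010914.10, chromosome 2, 103021055 to 103073513), the protein that tethers E3 to the core, held 1036, 1220 and 1245 counts against 1220, 1240 and 1304. Control 490 was its lowest library. The log2 fold change was 0.11, 0.025 without control 490 and 0.038 at equal totals, with a limma adjusted p of 1.00 for all 6 libraries.

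Among the kinases, Pdk1 was lower in all knockout libraries. Pdk1 (ENSMUSG00000006494.11, chromosome 2, 71873215 to 71903858), an isoform known as a target of hypoxia signalling, was measured at 3411, 3420 and 3341 normalised counts across the controls and 2951, 2832 and 2827 across the knockouts. The groups did not overlap, with control 502 the lowest control and knockout 492 the highest knockout library. Means were 3390 ± 43.4 and 2870 ± 70.1 (SD, n = 3 per group), a change of -15.4%. The log2 fold change was -0.24 (SE 0.046) and had an interval from -0.34 to -0.14. Pdk1 ranked 17 by p among the 18250 features but missed the limma threshold (adjusted p = 0.166), as it did in edgeR (0.315). It passed in the authors' deposited table (log2 fold change -0.24, adjusted p = 0.0125), in DESeq2 on the recovered reads (adjusted p = 0.0208) and in limma on values scaled to equal totals (-0.31, adjusted p = 0.0165). Equal totals also moved the median of all features to -0.069, and 37 features were called there. With mitochondrial features left out of the totals, Pdk1 was at -0.21 (limma adjusted p = 0.364).

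**Figure D1:**
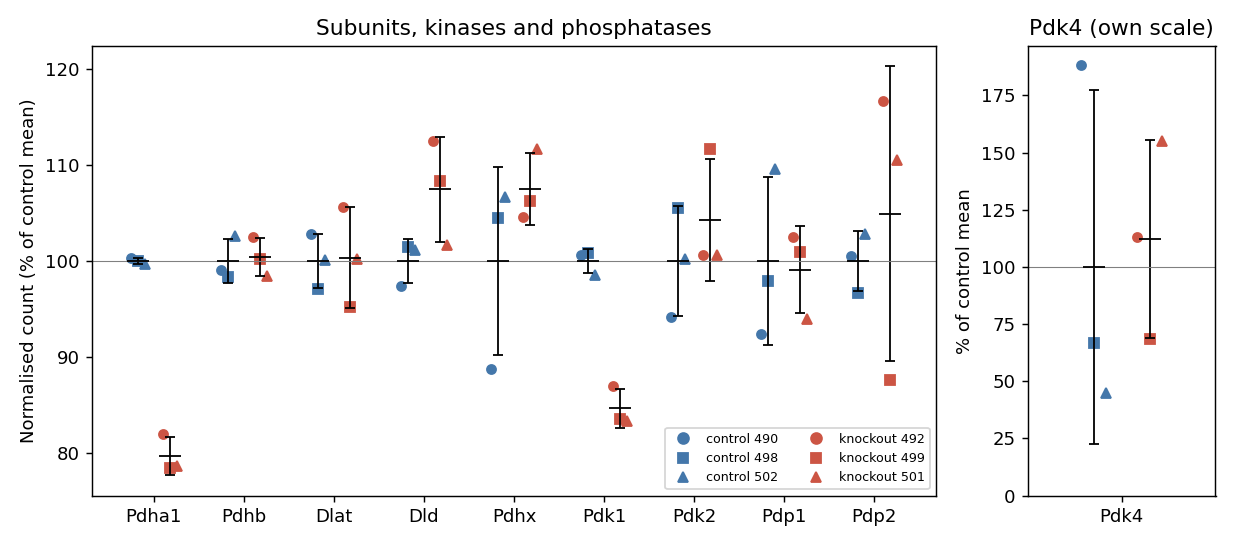
Normalised count of each member as a percentage of its control mean (y axis, not starting at 0 in the left panel) for the 10 members (x axis), with Pdk4 on a scale of its own. Points are libraries, and bars give the mean and SD of 3 libraries. The knockout libraries lie between 78.5% and 82.0% for Pdha1 and between 83.4% and 87.0% for Pdk1, below all control libraries, while Pdk4 spreads from 44.9% to 188% in control.

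Pdk2 (ENSMUSG00000038967.13, chromosome 11, 95026258 to 95041371), a widely expressed kinase of the complex, was measured at 2018, 2262 and 2148 normalised counts across the controls and 2156, 2392 and 2156 across the knockouts. The groups overlapped, with a log2 fold change of 0.061 and an interval from -0.069 to 0.19, and it was 0.011 to 0.10 without any 1 library. Pdk3, a kinase left out of the 10, was near the filter at 10.7 to 22.6 counts in control and 21.5 to 24.8 in knockout libraries. Its log2 fold change of 0.68 had an interval from -0.030 to 1.38.

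Pdk4 (ENSMUSG00000019577.6, chromosome 6, 5483351 to 5496278) varied more between libraries of 1 genotype than any other member. It was measured at 5611, 1989 and 1338 normalised counts across the controls (490, 498 and 502) and 3364, 2038 and 4623 across the knockouts (492, 499 and 501). The highest and the lowest library were both controls, 4.19-fold apart. The log2 fold change was 0.36 with an interval from -0.47 to 1.19, so the data allow a difference in either direction. It was 0.96 without control 490 and -0.078 without control 502, and 0.17 in the authors' deposited table. The residual SD of Pdk4 was 0.86 on the log2 scale, where the median feature had 0.15 and 99.5% of features tested had less. Counting error was a CV of 1.76% in control against an observed 77.3%.

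The phosphatases did not separate the genotypes. Pdp1 (ENSMUSG00000049225.14, chromosome 4, 11958183 to 11966450), the calcium-stimulated phosphatase of heart and muscle, was measured at 1062, 1125 and 1260 normalised counts across the controls and 1178, 1160 and 1080 across the knockouts. The log2 fold change was -0.010, with an interval from -0.16 to 0.14. Pdp2 (ENSMUSG00000048371.8, chromosome 8, 104591472 to 104599026), the second catalytic subunit, held 1320, 1269 and 1349 counts against 1532, 1149 and 1451. Knockout libraries lay both above and below all control libraries, and the log2 fold change was 0.059 with an interval from -0.13 to 0.25. Pdpr, the regulatory subunit of the phosphatase, held 2107 to 2197 counts in control and 2087 to 2216 in knockout libraries, a log2 fold change of -0.0031. Pdha2, the E1 alpha gene known from testis, had 1 to 8 reads per library and was not tested.

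Of the 10 members limma called 1 lower, Pdha1, and 0 higher, at an adjusted p under 0.05, where 0.0219% of the 18250 features were called lower and 0% higher. At an unadjusted p under 0.05, 2 members were lower and 0 higher, against 1.98% and 1.72% of all features. The groups did not overlap in 2 lower members and in 1 higher member, against 4.9% and 4.61% of all features. The authors' deposited table called 2 members lower, Pdha1 and Pdk1, and 0 higher, where it called 0.384% lower and 0.053% higher of the 7550 features to which it gave an adjusted p. edgeR called 0 members, with 0.0164% of features called lower and 0.011% higher. DESeq2 called 2 members lower and 0 higher, with 0.461% of features called lower and 0.0682% higher. The median log2 fold change of the 10 members was 0.032, beside 0.00056 over all features tested. Because the contrast was in view when the members were grouped, nothing is read from these counts.

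**Figure D2:**
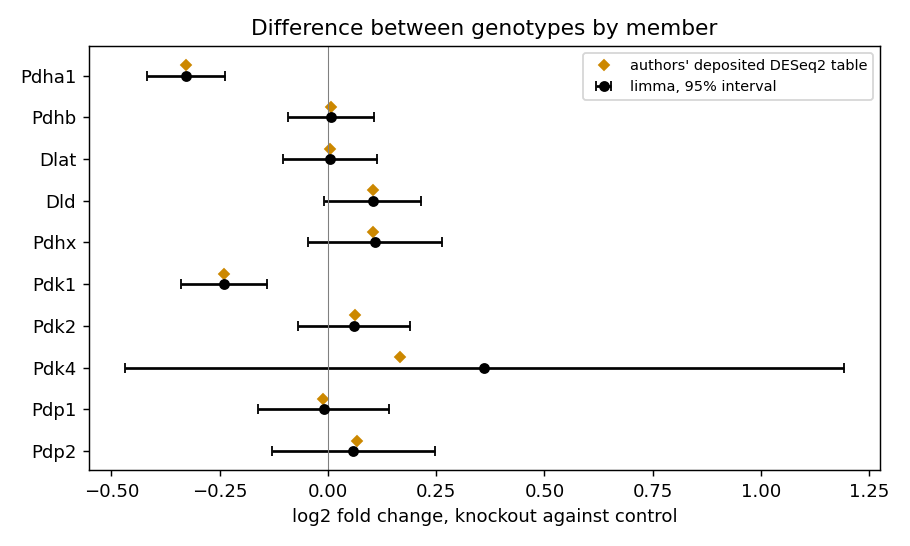
Log2 fold change of knockout against control (x axis) for each member (y axis). Black points are limma estimates with 95% intervals from 3 libraries per group, and diamonds are values of the authors' deposited table. The intervals of Pdha1 and Pdk1 lie below 0, those of the other 8 members include 0, and that of Pdk4 runs from -0.47 to 1.19.

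Ratios between members within 1 library do not depend on the scaling of that library, so they were given as a description without a test. Transcript length cancels in their difference between libraries, not in the ratio itself. The log2 ratio of Pdha1 to Pdhb, the chains of 1 enzyme, was 1.94, 1.95 and 1.88 across the controls (490, 498 and 502) and 1.60, 1.57 and 1.60 across the knockouts (492, 499 and 501). The groups did not overlap and differed by -0.33. Against the mean log2 level of Pdhb, Dlat, Dld and Pdhx, Pdha1 was at 2.41, 2.35 and 2.32 in control and 1.98, 1.97 and 1.97 in knockout libraries, a difference of -0.38. The difference stayed between -0.40 and -0.36 without any 1 library.

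The ratio of Pdk1 to Pdk2 separated the groups as well, at 0.76, 0.60 and 0.64 in control and 0.45, 0.24 and 0.39 in knockout libraries, a difference of -0.30. The ratio of Pdha1 to Pdk1 differed by only -0.087, with an SD of 0.016 in control and 0.0028 in knockout libraries, still without overlap. Both SDs are below what counting error alone gives, a CV for Pdk1 of 1.67% in control and 1.91% in knockout libraries. Nothing is therefore read from how small they are. Summed kinases (Pdk1, Pdk2 and Pdk4) over summed phosphatases (Pdp1 and Pdp2) gave 2.21, 1.68 and 1.39 in control and 1.64, 1.65 and 1.92 in knockout libraries. These values overlapped, and control 490, the library with the most Pdk4, had the highest. Pdk4 over Pdk2 ran from -0.68 in control 502 to 1.48 in control 490, a range that held all 3 knockout libraries.

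**Figure D3:**
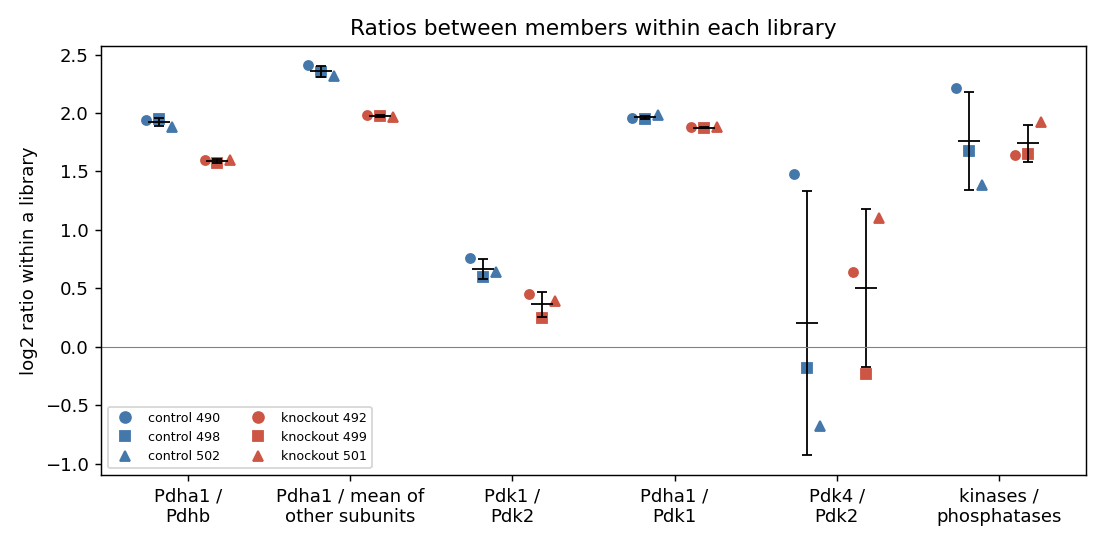
Log2 ratio between members within each library (y axis) for 6 pairs or sums (x axis). Points are libraries, and bars give the mean and SD of 3 libraries. The groups separate for Pdha1 over Pdhb (a difference of -0.33), Pdha1 over the other subunits (-0.38), Pdk1 over Pdk2 (-0.30) and Pdha1 over Pdk1 (-0.087), and overlap for both ratios that hold Pdk4.

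The order of the libraries by Pdk4 was compared with that of 17 genes known to be induced with it in fasting. In 8 of the 17 genes the 3 highest libraries were the 3 with the most Pdk4, control 490, knockout 501 and knockout 492. This is 47.1% of the list, and 6.59% of all 18250 features had the same 3 libraries highest. The list was chosen with earlier results of these data known, and the genes of this order were named after their values were seen. Whether they vary independently of one another was not tested. This share and that of the next order are therefore a description. The same 3 libraries were also those below 0 on the first principal component, at -30.1, -5.63 and -5.36, and the part of that component in the Pdk4 levels was not tested. The 8 genes were Cpt1a, Cpt1b, Ucp3, Angptl4, Acot1, Acot2, Cd36 and Plin5, all known targets of PPAR receptors that serve fatty acid uptake, storage or oxidation. Ucp3, an inner membrane carrier, was measured at 789, 427 and 277 normalised counts across the controls (490, 498 and 502) and 667, 271 and 869 across the knockouts (492, 499 and 501). Angptl4, a secreted inhibitor of lipoprotein lipase, held 133, 66.7 and 24.4 in control and 114, 51.1 and 112 in knockout libraries.

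In another 6 genes, Ucp2, Klf15, Per1, Fkbp5, Tsc22d3 and Zbtb16, control 490 and knockout 501 were the 2 highest libraries, while knockout 492 was not among the 3 highest, an order found in 5.97% of all features. Plin2, Fbxo32 and Trim63, the rest of the 17 genes, had neither order. Fkbp5, known as a target of the glucocorticoid receptor like Tsc22d3 and Zbtb16, was measured at 706, 353 and 292 normalised counts across the controls and 301, 332 and 827 across the knockouts (492, 499 and 501). Knockout 492 was thus high in Ucp3 and low in Fkbp5. Across the 6 libraries Pearson's r with Pdk4 on the log2 scale ran from -0.75 for Trim63 to 0.98 for Acot2, given as a description. Limma called 0 of the 17 genes in either direction, with a median log2 fold change of 0.029. Fbxo32, a muscle ubiquitin ligase under FOXO control, had the smallest p of the list, with a log2 fold change of 0.18 and a limma adjusted p of 0.845. Cpt1a was at 0.16 and Plin2, a lipid droplet coat protein, at 0.14.

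**Figure D4:**
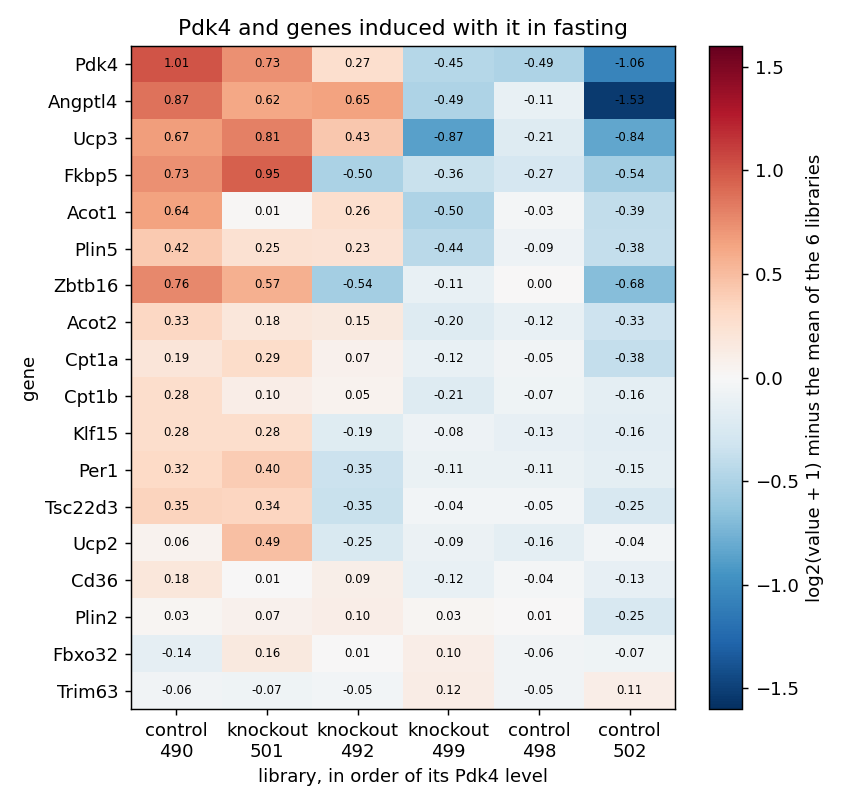
Log2(value + 1) minus the mean of the 6 libraries (colour and printed number) for Pdk4 and 17 genes known to be induced with it in fasting (y axis), with libraries ordered by their Pdk4 level (x axis). Control 490 and knockout 501 are the 2 libraries with the most Pdk4, at 1.01 and 0.73, while knockout 492 is high for Angptl4 (0.65) and low for Fkbp5 (-0.50).

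Among 14 transcription factors and cofactors known to act on Pdk4, limma called 0, with 7 above and 7 below 0 and a median of 0.0023. The 3 with the smallest p were Ppard (-0.19), Ppara (-0.14), which encodes the receptor most tied to cardiac fatty acid oxidation, and Nr4a1 (-0.30), each with a limma adjusted p of 1.00.

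Genes that feed the complex or build its cofactors showed no call. Of 17 genes of pyruvate and lactate supply, limma called 0 higher and 0 lower, with 8 above 0 and a median log2 fold change of -0.0034. Mpc1 and Mpc2, the mitochondrial pyruvate carrier, were at 0.077 and 0.014. The smallest p were those of Pkm (-0.12), the last enzyme of glycolysis, Bsg (0.087), a chaperone of lactate transporters, and Ldhd (-0.11), a D-lactate dehydrogenase. Of 15 genes for lipoate, the cofactor of E2, 0 were called and the median was 0.0048. Bola3, an iron-sulfur factor needed for lipoate, was measured at 674, 642 and 690 normalised counts across the controls and 585, 554 and 592 across the knockouts. These did not overlap, but the log2 fold change of -0.21 had a limma adjusted p of 1.00. Nfu1 (-0.18) and Oxsm (-0.11) overlapped between the groups.

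Of 2 tested genes of thiamine supply 0 were called, with log2 fold changes of 0.061 for Thtpa and 0.057 for Slc19a2. The sister 2-oxoacid dehydrogenases, several of which use the same E3, had 0 called of 12 and a median of -0.0013. Ogdh, the E1 of the oxoglutarate complex, was at -0.063 and its E2, Dlst, at 0.024, while Bckdha was at -0.088 and Gcsh, the lipoyl protein of glycine cleavage, at -0.14, each with a limma adjusted p of 1.00. At an unadjusted p under 0.05 limma found 1 gene of the supply list (Pkm, lower), 1 of the lipoate list (Bola3, lower) and 1 of the list induced with Pdk4 (Fbxo32, higher), and 0 of the other 3 lists, where 1.98% of all features were lower and 1.72% higher. Groups did not overlap in 1 higher (Bsg) and 1 lower (Ldhd) supply gene, and in 1 higher (Mecr) and 1 lower (Bola3) lipoate gene. Nor did they in 2 lower sister dehydrogenase genes (Ogdh and Gcsh) and 2 higher genes induced with Pdk4 (Plin2 and Fbxo32). The thiamine and regulator lists had 0 such genes. Over all features 4.61% were higher and 4.9% lower without overlap. The authors' deposited table, edgeR and DESeq2 called 0 genes of these 6 lists. The deposited table gave an adjusted p to 14 of 17 genes for supply, 10 of 15 for lipoate and 0 of 3 for thiamine. It gave one to 8 of 13 sister dehydrogenase genes, 15 of 17 induced with Pdk4 and 12 of 14 regulators. DESeq2 likewise gave none to some genes, such as Lias and Thtpa. Genes without an adjusted p could not be called there.

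Between members, Pdk1 had the pattern most like Pdha1, with a Pearson's r of 0.996 over log2 values of the 6 libraries. With the members and predicted genes left out, the features most like Pdha1 among 11171 with a mean of at least 50 counts were Ghitm (0.998), Cpe (0.997), Chpt1 (0.996), Sucla2 (0.989) and Phyh (0.989). Their pattern is mostly the step between the genotypes, with log2 fold changes of -0.67, -0.52, -0.19, -0.23 and -0.29. Ghitm and Cpe were themselves called lower (limma adjusted p = 9.58e-05 and 0.00399), and Chpt1, Sucla2 and Phyh were not. Those most like Pdk4 were Zranb3 (0.991), Pfkfb1 (0.990), Mbd1 (0.989), Lmo7 (0.989) and Ndufc2 (0.988), with log2 fold changes from 0.027 to 0.16. These r values describe 6 libraries that share 1 scaling.

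Of the marker lists, limma called 0 genes for cardiomyocytes (8 tested), endothelium (6), fibroblasts (6), smooth muscle and pericytes (6), macrophages (6) and erythroid cells (5). At an unadjusted p under 0.05 the 1 gene of these lists was Adgre1 (macrophages, log2 fold change 0.35). Of the skeletal muscle list 2 genes were tested, and 1, Acta1, was higher at that threshold. Over all features, 1.72% were higher and 1.98% lower at it. The 6 lymphocyte markers, none of which passed the filter, summed to 23.5 to 52.9 counts in control and 26.5 to 40.8 in knockout libraries. The 6 adipocyte markers summed to 0.94 to 4.07 counts in control and 1.07 to 6.77 in knockout libraries, with Lep at 0 in all, so adipocyte RNA was near absent. The skeletal muscle list summed to 15697 to 17051 and 18206 to 19473 counts, without overlap. Nearly all of it was Ckm, which overlapped between the groups, and Acta1, which did not. Acta1, also expressed in heart, was at 2186 to 4183 counts in control and 4433 to 5755 in knockout libraries, with a log2 fold change of 0.64 (limma, adjusted p = 0.744). Myh4, which defines fast skeletal muscle, was at 0 in all 6 libraries. Macrophage markers summed to 1812 to 2124 and 1976 to 2149 counts, with overlap. The part of Acta1 and of the mitochondrial share of reads in the Pdha1 and Pdk1 levels was not tested beyond scaling to totals without mitochondrial features, where the log2 fold changes were -0.30 (limma adjusted p = 0.0279) and -0.21 (0.364).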

How the data were processed

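Total RNA of heart was sequenced after depletion of ribosomal RNA, with random hexamer priming, per the labels' protocols. The signal values are normalised counts per gene, deposited by the authors after division by 1 size factor per library. The submitters' processing notes name DESeq2 1.22.2 with R 3.5.2, Bowtie2 2.3.4.1, featureCounts and bedtools, and the builds mm10 and GRCm38, without roles. Strand handling and the treatment of reads shared with related gene copies are not given in the sources used here. The authors' deposited DESeq2 table gave log2 fold changes, a test score, p-value and adjusted p-value columns, used as deposited. Symbols were joined for 54686 of 54715 Ensembl features, and positions are from RefSeq GRCm38.p6.

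All 156689 nonzero values were whole multiples (100% within a tolerance of 0.01) of the value of 1 read in their library, so reads were recovered. On them edgeR 4.0.16 called 5 features and DESeq2 1.42.0 called 31. No 2 libraries of a group agreed within counting noise (chi-square per degree of freedom 3.53 to 15.2). The main test was limma 3.58.1 (R 4.3.3), 2-sided, with a trended prior on log2(value + 1), and a single genotype term. It was adjusted after Benjamini and Hochberg over 18250 features whose mean reached 10. It was tested on simulated counts. Intervals are 95%. Counting CVs cover counting error only.

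The members and gene lists were chosen with earlier results of these data known. The rule named all members, Pdk3, Pdpr and Pdha2, of each other pathway list any called gene and the 3 of smallest p, and the 5 features most like Pdha1 and Pdk4. Other list genes, the genes of the Pdk4 order and Rexo2 were named after their values were seen, as were the promoters and motifs. Alternatives covered the pseudocount, the filter, scaling, the moderation, edgeR, DESeq2, the deposited table and leaving out each library. Gene spans hold introns, so levels were not compared between genes. Some genes of the lists are not reported here. Libraries of mitochondrial RNA ends were not analysed here.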

Additional observations from a re-analysis of the deposited data

How the results depend on the processing

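Over 18 alternatives, Pdha1 kept its direction in all and its call in 12, and Pdk1 kept its direction in all and passed in 3. None of the other 8 members passed in any. The Pdha1 log2 fold change was -0.33 in limma without a trend (adjusted p = 0.921) and in edgeR (-0.33, 0.0598), both short of the threshold, and -0.35 to -0.32 without any 1 library (0.0194 to 0.241). The number of members called lower was 1, but 2 under equal totals, in DESeq2 and in the authors' deposited table, 0 in edgeR and without a trend, and 0 to 1 without 1 library, while 0 were called higher in every alternative. Over all features, edgeR called 5, DESeq2 31, equal totals 37, the fit without a low-value filter 12, robust moderation 12 and no trend 0, against 4 in the reported test. Signs turned for 6 members without a call. Under equal totals, which moved the median of all features from 0.00056 to -0.069, Pdhb was at -0.064, Dlat at -0.066, Pdk2 at -0.0095 and Pdp2 at -0.011, with Dld at 0.033 and Pdhx at 0.038, and without mitochondrial features in the total Pdp1 was at 0.017. Leaving out 1 library gave -0.0090 to 0.025 for Pdhb, -0.034 to 0.042 for Dlat, -0.078 to 0.96 for Pdk4, -0.065 to 0.058 for Pdp1 and -0.023 to 0.18 for Pdp2. The cause of these shifts was not tested. No paired analysis was possible because the columns of the count table carry no replicate number. Pdk3 and Pdha2 had few reads, and the control CVs of Pdha1 and Pdk1 were below counting error.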
